A study of Mesocricetus auratus and Mus musculus with 214 samples.

Results

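The 9 meiotic recombination genes Spo11, Prdm9, Rec114, Dmc1, Meiob, Msh4, Msh5, Rnf212 and Mlh3 were followed through golden hamster gametogenesis. They were chosen by name as genes of 1 process and were found among 36133 gene entries by matching NCBI gene IDs to golden hamster symbols. All 9 were matched, each to 1 gene ID: Spo11 to 101830337, Prdm9 to 101825348, Rec114 to 101823271, Dmc1 to 101834872, Meiob to 101825691, Msh4 to 101839682, Msh5 to 101827559, Rnf212 to 101842082 and Mlh3 to 101839789.

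Meiotic recombination begins when the SPO11 complex cuts both DNA strands, in mice mainly at sites that PRDM9 marks on histones and with REC114 as a part of the cutting machinery. The broken ends are coated by recombinases such as DMC1 and by single-strand binding proteins such as MEIOB, and they invade the homologous chromosome. A minority of these joints is stabilised by the MSH4-MSH5 pair and RNF212 and is then resolved into crossovers with the help of MLH3. In males this runs from leptotene to pachytene in the adult testis. In female mice it is completed around birth, and a fully grown oocyte has recombined long before it ovulates.

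The study examined knockouts of each of the 4 PIWI genes, whose proteins bind the small piRNAs of the germline, and asked what the losses did to gametogenesis. Here 36 groups of RNA libraries were analysed, 30 libraries of sorted cells, 16 of testes, 43 of oocytes and embryos and 14 of WT stages, and the small-RNA libraries were not used. The mutants carry CRISPR-Cas9 frameshift alleles with a premature stop, so that a transcript of the targeted gene can still be made. The groups are as follows. Sorted cells came from adult testes of Piwil1-/- and WT males in 4 fractions, spermatogonia with pre-leptotene cells (SPG_PL, 3 Piwil1-/- and 4 WT libraries), leptotene with zygotene cells (LZ, 3 and 4), pachytene cells (P, 4 and 4) and a fraction labelled D, diplotene in the study's text (4 and 4). Whole adult testes came from Piwil1-/-, Piwil2-/-, Piwil4-/-, Piwil3-/- and WT males, and testes at 3 days post partum (d.p.p.) from Piwil2-/-, Piwil4-/- and WT males, with 2 libraries per group. Germinal vesicle (GV) oocytes came from Piwil3-/- and WT females (3 and 3 libraries), and ovulated metaphase II (MII) oocytes came from Piwil3-/- (4), Piwil2-/- (3), Piwil4-/- (2) and WT females (4, and a further WT set of 3 labelled MII2). Embryos were collected at 11, 34 and 54 h post egg activation from Piwil3-/- females (5, 3 and 2 libraries) or WT females (5, 4 and 2), and the study mated both to WT males, so that the embryos of Piwil3-/- females lacked maternal Piwil3 only. A last set of WT cells covered 7 stages of spermatogenesis with 2 libraries each, spermatogonia, pre-leptotene, leptotene, zygotene and pachytene cells, round sperm and mature sperm. The labels name separate libraries but not separate animals, so p-values measure the spread between libraries, which may be technical in part.

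The 7 stages were given in FPKM and the other libraries as fragments per kilobase scaled to added ERCC spike-in RNA, per 10000 ERCC reads for sorted cells, oocytes and embryos and per 1000 for whole testes. These are called spike-in units below, and levels are not compared between the 3 spike-in tables. From 15944 to 29574 genes were above 0 in a stage library, 14493 to 22778 in sorted cells, 17749 to 21628 in testes and 5667 to 16169 in oocytes and embryos. In each mutant testis and sorted P and D fraction, and in Piwil3-/- GV, MII and 11 h samples, every library had less of the targeted transcript than every WT library, but some remained. Piwil1 had 38.8 to 59.6 units in Piwil1-/- pachytene cells, against 229.9 to 327 in WT, and Piwil3 had 15.8 to 17.1 in Piwil3-/- GV oocytes, against 43.6 to 54.1 in WT. Piwil2 in Piwil2-/- MII oocytes overlapped WT MII2 oocytes (0.242 to 2.40 against 0.670 to 1.94). In the WT stages summed spermatocyte markers were highest in zygotene (3601 to 3705 FPKM, against 647 to 660.2 in spermatogonia), and spermatid markers, at 4759 to 6476 in round sperm, were also read at 304 to 470.4 in spermatogonia. Of the WT LZ libraries, 1A and 1B stood apart, with summed spermatid markers (7 fixed names, 4 of them matched) at 38.8 and 82.5 units, against 2.20 and 1.44 in 2A and 2B, and results that use them are given with and without both.

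In the WT stages, the genes of break formation were highest before or at leptotene. Spo11, the enzyme that makes the cut, had 3.88 and 3.18 FPKM in spermatogonia, 9.56 and 4.03 in pre-leptotene cells, 77.9 and 60.9 in leptotene cells, 51.1 and 79.5 in zygotene cells, 24.5 and 30.99 in pachytene cells, 6.23 and 7.92 in round sperm and 4.34 and 1.91 in mature sperm. Its mean was therefore highest in leptotene, with zygotene at 94.1% of that mean and overlapping it between libraries, and pachytene at 40.01%. Prdm9, the histone methyltransferase that in mice places the cuts, had 4.35 and 4.15 FPKM in spermatogonia, 46.9 and 25.1 in pre-leptotene cells, 100.4 and 105 in leptotene cells, 16.5 and 44.96 in zygotene cells, 3.20 and 2.61 in pachytene cells, 0.655 and 0.717 in round sperm and 2.78 and 1.32 in mature sperm. Its fall came earlier than that of Spo11, with 29.9% of the leptotene mean left in zygotene and 2.83% in pachytene. Rec114, a partner of the cutting complex, took a different course, with 126 and 132 FPKM in spermatogonia, 123 and 116 in pre-leptotene cells, 55.2 and 79.6 in leptotene cells, 32.2 and 38.99 in zygotene cells, 28.3 and 29.05 in pachytene cells, 5.13 and 8.85 in round sperm and 1.95 and 1.14 in mature sperm. It was the most abundant of the 9 genes per length in spermatogonia, where it made up 50.7% of their summed FPKM, and its spermatogonia and pre-leptotene libraries lay above those of every later stage.

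**Figure D1:**
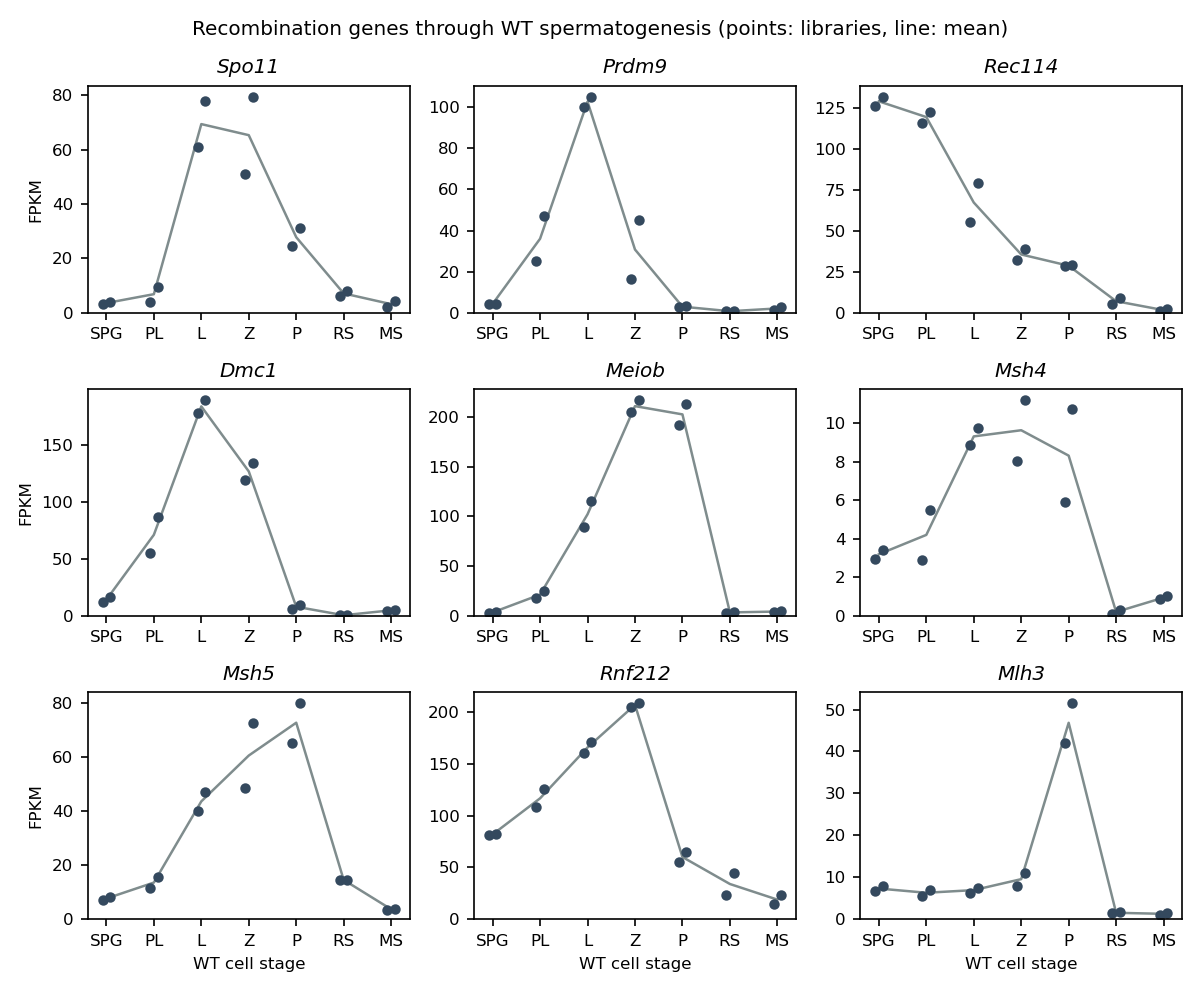
FPKM (linear axis from 0) of the 9 recombination genes in 7 WT stages ordered from spermatogonia to mature sperm, where points are the 2 libraries of a stage and the line joins the means. Spo11, Prdm9 and Dmc1 are highest in leptotene, Meiob, Msh4 and Rnf212 in zygotene, Msh5 and Mlh3 in pachytene, and Rec114 in spermatogonia.

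The strand-exchange genes Dmc1 and Meiob parted after leptotene. Dmc1, the recombinase used only in meiosis, had 16.2 and 12.3 FPKM in spermatogonia, 87.3 and 55.3 in pre-leptotene cells, 190.0 and 179 in leptotene cells, 119.8 and 134 in zygotene cells, 6.47 and 9.56 in pachytene cells, 0.572 and 0.536 in round sperm and 5.32 and 4.44 in mature sperm. Leptotene libraries were the highest, zygotene libraries followed below them without overlap, and pachytene libraries kept 4.35% of the leptotene mean. Meiob, which coats single-stranded DNA together with SPATA22, had 3.28 and 3.63 FPKM in spermatogonia, 25.00 and 17.7 in pre-leptotene cells, 115 and 89.3 in leptotene cells, 217 and 205 in zygotene cells, 193 and 213 in pachytene cells, 2.60 and 4.33 in round sperm and 4.93 and 3.76 in mature sperm. Zygotene and pachytene overlapped for Meiob, and its round sperm mean was 1.64% of the zygotene mean. It was the most abundant of the 9 genes in both zygotene and pachytene, with 27.9% and 44.3% of their summed FPKM.

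By stage means the crossover genes were highest in zygotene or pachytene, later than the break genes. Msh4, which with MSH5 clamps recombination intermediates, was low throughout, with 2.95 and 3.44 FPKM in spermatogonia, 5.49 and 2.92 in pre-leptotene cells, 8.89 and 9.74 in leptotene cells, 8.06 and 11.2 in zygotene cells, 5.91 and 10.7 in pachytene cells, 0.309 and 0.0964 in round sperm and 1.01 and 0.888 in mature sperm. Its leptotene, zygotene and pachytene libraries overlapped. Msh5, its partner, had 7.23 and 8.02 FPKM in spermatogonia, 15.6 and 11.4 in pre-leptotene cells, 47.1 and 40.1 in leptotene cells, 48.4 and 72.8 in zygotene cells, 65.4 and 80.2 in pachytene cells, 14.6 and 14.4 in round sperm and 3.48 and 3.79 in mature sperm. Rnf212, a RING protein that in mice gathers at future crossovers, had 81.2 and 82.5 FPKM in spermatogonia, 126 and 108 in pre-leptotene cells, 171 and 161 in leptotene cells, 205 and 209.6 in zygotene cells, 55.1 and 65.1 in pachytene cells, 23.1 and 44.9 in round sperm and 22.96 and 14.7 in mature sperm. It was already high in spermatogonia, at 39.5% of its zygotene mean. Mlh3, a subunit of the nuclease that resolves crossovers, had 7.82 and 6.75 FPKM in spermatogonia, 5.61 and 6.95 in pre-leptotene cells, 6.31 and 7.51 in leptotene cells, 7.95 and 11.1 in zygotene cells, 51.6 and 42.1 in pachytene cells, 1.39 and 1.61 in round sperm and 1.56 and 0.944 in mature sperm. Mlh3 lay between 5.61 and 11.1 FPKM in every library up to zygotene, and both pachytene libraries were far above that range.

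**Figure D2:**
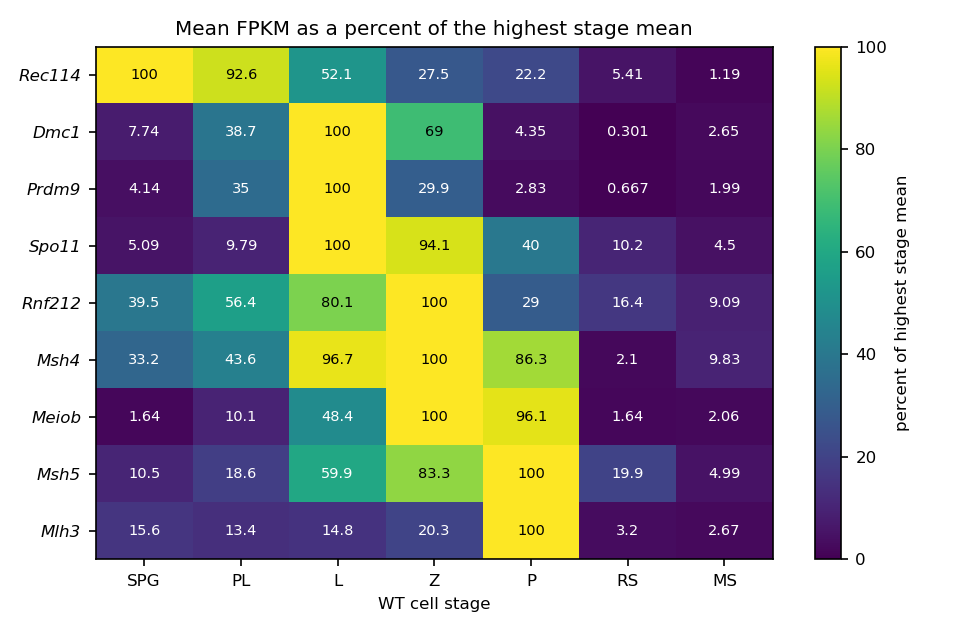
Mean FPKM of each of the 9 genes (rows) in 7 WT stages (columns) as a percent of its own highest stage mean, where colour and printed number give the percent. Zygotene Mlh3 stands at 20.3% of its pachytene mean, while pachytene Prdm9 and Dmc1 stand at 2.83% and 4.35% of their leptotene means.

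Neighbouring stages were compared with limma on log2(FPKM + 1), with adjusted p-values (Benjamini-Hochberg) over all genes tested, and a gene is called at an adjusted p under 0.05. With 2 libraries against 2, an exact permutation test of a single gene cannot go below 0.333. In pre-leptotene cells against spermatogonia, 3 of 9 genes tested were higher and 0 lower, where 1.57% of all 11537 genes were higher and 4.59% lower, and the members' median log2 difference was 0.69, against -0.26 over all genes. These were Prdm9 (log2 difference 2.75 ± 0.43 (SE), adjusted p 0.00909), Dmc1 (2.22 ± 0.25, 0.00270) and Meiob (2.31 ± 0.24, 0.00206). In leptotene against pre-leptotene cells, 4 of 9 were higher and 0 lower, against 4.66% and 0.597% of all genes, with medians of 1.39 and 0.19. Spo11 was 10.2-fold higher in leptotene (log2 3.26 ± 0.39, adjusted p 0.00440), and Meiob, Msh5 and Dmc1 were higher by 2.21, 1.63 and 1.39 on the log2 scale. Prdm9 missed the threshold at this step (log2 1.55 ± 0.42, adjusted p 0.0607). Fitted on the compared groups alone, neither step gave a call, and without leptotene library 1 the leptotene step gave 1.

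In zygotene against leptotene cells, 1 gene was higher and 2 lower of 9 tested, against 7.31% and 19.5% of all genes, with medians of 0.03 and -0.19. Meiob was higher (log2 1.05 ± 0.24, adjusted p 0.00943), while Prdm9 (log2 -1.87 ± 0.42) and Rec114 (log2 -0.88 ± 0.26) were lower. This step lost its 3 calls without leptotene library 2 or without zygotene library 1. In pachytene against zygotene cells, 1 was higher and 4 lower of 9, against 24.2% and 32.9% of all genes, with medians of -0.30 and -0.22. Mlh3 was 4.91-fold higher in pachytene (log2 2.19 ± 0.25, adjusted p 3.04e-05). Dmc1 was at 6.30% of its zygotene mean (log2 -3.85 ± 0.26, adjusted p 7.01e-07), and Prdm9, Rnf212 and Spo11 were lower, with log2 differences of -2.86, -1.78 and -1.18. Meiob, Msh4, Msh5 and Rec114 were not called at this step.

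In round sperm against pachytene cells, all 9 were tested and lower, against 40.8% of all genes higher and 41.4% lower, with medians of -2.24 and -0.06. The filter could be passed on the pachytene libraries alone. Prdm9, Dmc1, Msh4 and Mlh3 were under 2 FPKM in each round sperm library and were admitted for being high in pachytene. Meiob was at 1.71% of its pachytene mean (log2 -5.54 ± 0.24), Mlh3 at 3.20%, Msh5 at 19.9% and Rnf212 at 56.5%. Leaving out single libraries left 7 or 8 of these calls. In mature against round sperm, 6 of the 9 genes passed the filter on low values, and 1 was higher and 4 lower, against 46.5% and 31.8% of all genes, with medians of -0.90 and 0.48. Dmc1 was the higher one (log2 1.92 ± 0.25), on 19 and 18 reads in mature sperm, against 8 and 8 in round sperm. It was under 2 FPKM in each round sperm library and passed the filter through mature sperm, where it was high. Rec114, 1 of the lower ones, was under 2 FPKM in each mature sperm library and passed through round sperm. Summed macrophage markers, of which 4 of 4 were above 0, moved with this step, at 444 to 776 FPKM in mature sperm, against 3.22 to 4.23 in round sperm, and their part in the Dmc1 value was not tested. Without round sperm library 2 or mature sperm library 2, 3 of the 5 calls were left.

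The same steps were counted for a list of 33 matched symbols of other recombination genes, under the same filter, which could be passed on a single stage. In pre-leptotene cells 4 of 32 tested were higher and 0 lower, against 1.57% and 4.59% of all genes, among them the helicase gene Hfm1 (log2 1.58) and Zcwpw1, whose protein in mice reads the PRDM9 mark (1.00). In leptotene 4 of 33 were higher and 0 lower, against 4.66% and 0.597% of all genes, with Top6bl, whose protein pairs with SPO11, at 1.28. In zygotene 2 of 33 were higher and 8 lower, near the 7.31% and 19.5% of all genes, including Mei4, a partner of REC114 in mice, at -1.74. In pachytene 4 of 31 were higher and 15 lower, against 24.2% and 32.9% of all genes, with Mnd1, a helper of DMC1, at -4.21 and Top6bl at -2.97. In round sperm 3 of 28 were higher and 22 lower, against 40.8% and 41.4% of all genes, with Ccnb1ip1, which acts with RNF212 in mice, at -4.56.

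Over the 7 stage means the profiles of Prdm9 and Dmc1 were the most alike of the 36 pairs of members (Pearson r = 0.967 across log2 means), and those of Prdm9 and Mlh3 the least (r = 0.219). Among all genes with a stage mean over 2 FPKM, those most like each member by the same measure were Hmmr for Dmc1 (r = 0.993), Mcmdc2 for Meiob (among the 3 nearest, r = 0.982), Tox4 for Mlh3 (0.996), Mrps12 for Rec114 (0.995), Usp32 for Prdm9 (0.986), Letmd1 for Msh4 (0.991), Tcea1 for Rnf212 (0.992), Dync1i2 for Msh5 (among the 3 nearest, 0.985) and Vps13a for Spo11 (among the 3 nearest, 0.968). These are descriptions over 7 points that share 14 libraries. In the 16 WT sorted libraries, which did not choose these genes, the same pairs had r = 0.984 for Mcmdc2 with Meiob, 0.992 for Dync1i2 with Msh5 and 0.843 for Hmmr with Dmc1, but -0.43 for Usp32 with Prdm9 and 0.302 for Mrps12 with Rec114.

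Sorted WT cells covered the same steps in a separate set of libraries, on the spike-in scale and with 4 libraries each. Dmc1 had 2.63, 5.43, 3.43 and 3.68 units in SPG_PL, 19.5, 15.6, 29.6 and 34.3 in LZ and 0.272, 0.443, 1.06 and 1.47 in P, and was listed at 0 in all 4 D libraries. Meiob had 0.462, 1.79, 1.02 and 1.12 in SPG_PL, 54.8, 68.2, 24.02 and 30.8 in LZ, 101, 63.5, 86.9 and 108 in P and 50.4, 31.3, 36.2 and 37.2 in D. Mlh3 had 3.22, 7.33, 0.594 and 1.1 in LZ, 20.2, 13.6, 16.2 and 18.1 in P and 8.04, 3.84, 5.97 and 4.41 in D. Dmc1 was thus highest in LZ without overlap, and Mlh3 was highest in P without overlap.

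In WT LZ against SPG_PL cells, 8 of the 9 genes passed the filter, 7 were higher and 1 lower, against 34.1% and 26% of all genes, with medians of 1.96 and 0.11. The filter could be passed on the LZ libraries alone. Meiob, Msh5 and Msh4 were under 2 units in every SPG_PL library and were admitted for being high in LZ. Meiob was 40.5-fold higher (log2 4.36 ± 0.23) and Spo11 18.1-fold higher (log2 2.88 ± 0.18), while Rec114 was at 31.2% of its SPG_PL mean (log2 -1.54 ± 0.16). Without LZ libraries 1A and 1B the counts were the same and Prdm9 was higher by 2.66 rather than 1.52. In this step 14 of 24 other recombination genes tested were higher and 4 lower, with the crossover regulator gene Cntd1 at 2.96.

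In WT P against LZ cells all 9 were tested, 4 were higher and 2 lower, against 81.8% and 6.96% of all genes, with medians of 0.21 and 1.43. Dmc1 was under 2 units in every P library, and Prdm9 reached 2.19 at most there. Both of these lower genes thus passed the filter through the LZ libraries. Dmc1 was at 3.29% of its LZ mean (log2 -3.81 ± 0.23) and Prdm9 was lower (log2 -1.85). Mlh3 was 5.56-fold higher (log2 2.44 ± 0.30), and Msh5, Meiob and Rec114 were higher by 1.47, 1.09 and 1.08. The spike-in scaling bore on this step. With libraries scaled to equal totals, the all-gene median was 0.02 and the split became 1 higher and 7 lower of 9, Msh5, Meiob and Rec114 turned to -0.13, -0.56 and -0.45, while Mlh3 (1.21) and Dmc1 (-5.31) kept their directions. Without LZ libraries 1A and 1B the counts on the spike-in scale were again 4 and 2, with Mlh3 at 3.29 and Prdm9 at -2.99. Among other recombination genes 17 of 26 tested were higher and 6 lower on the spike-in scale, with Mnd1 at -3.74.

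In WT D against P cells, 7 of the 9 genes passed the filter, and 0 were higher and 3 lower, against 57.2% and 9.16% of all genes, with medians of -0.40 and 0.55. One of the lower genes, Msh4, had a median of 1.28 units in D and passed the filter through the P libraries. Msh4 was at 28.5% of its P mean (log2 -1.29 ± 0.22), Mlh3 at 32.7% (log2 -1.49 ± 0.30), and Meiob was lower (log2 -1.18). With the replicate number as a block, Spo11 was also called, which made 4, and with equal totals all 7 genes tested were lower.

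**Figure D3:**
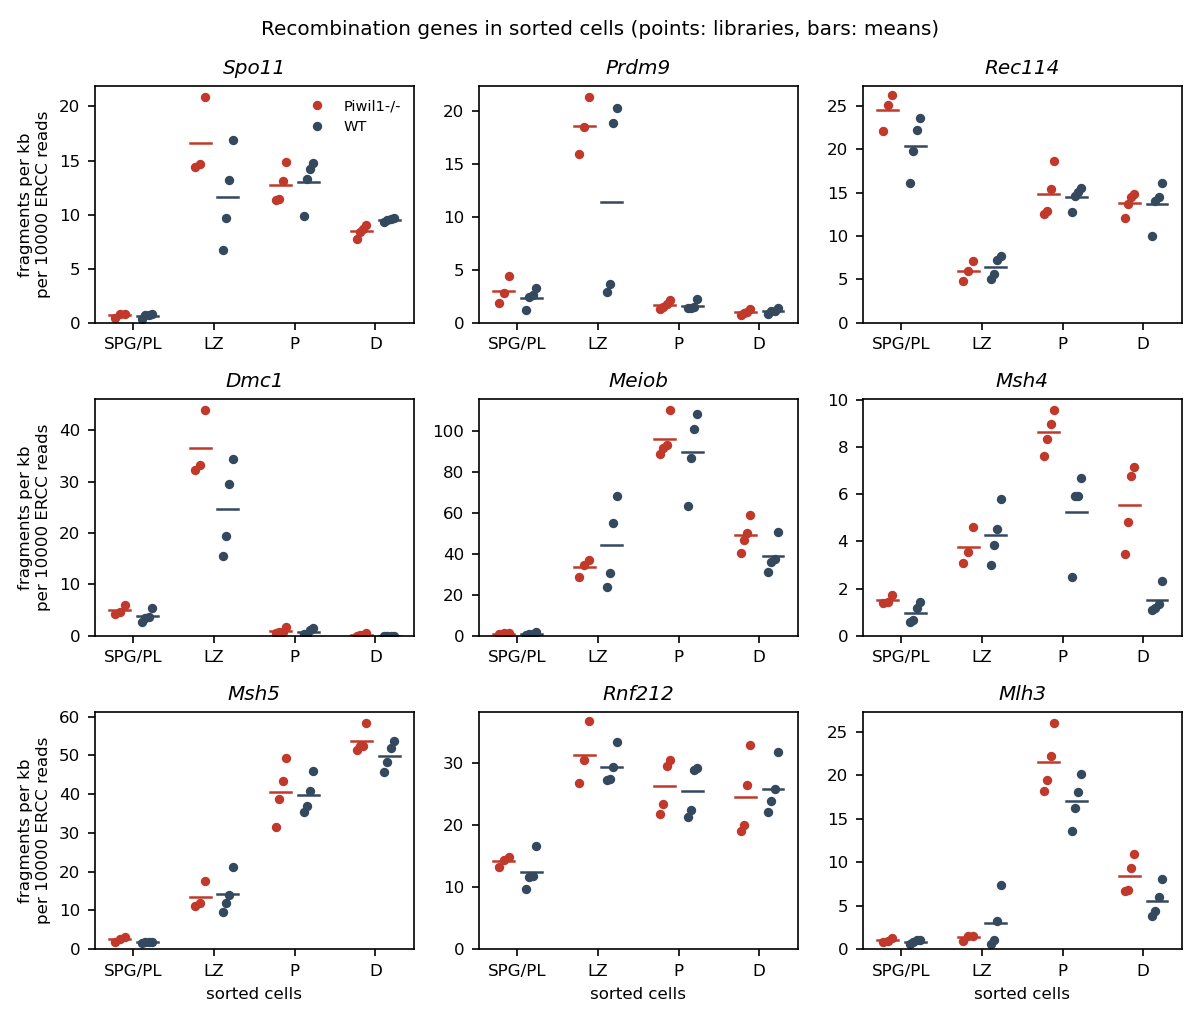
Levels of the 9 recombination genes in sorted cells, in fragments per kb per 10000 ERCC reads (linear axis from 0), for Piwil1-/- (left of each pair) and WT cells in the fractions SPG/PL, LZ, P and D, where points are libraries and bars their means. The 4 Piwil1-/- D libraries of Msh4 (3.46 to 7.16) all lie above the 4 WT ones (1.11 to 2.34).

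In sorted Piwil1-/- cells 1 recombination gene, Msh4, was called against WT, in the D fraction. Msh4 had 7.16, 3.46, 6.77 and 4.83 units in Piwil1-/- D cells (65, 45, 66 and 53 reads), against 2.34, 1.11, 1.36 and 1.197 in WT D cells (28, 11, 15 and 13 reads), and the groups did not overlap. The mean of 5.56 ± 1.73 in Piwil1-/- cells was 3.70-fold that of 1.502 ± 0.569 in WT cells (SD, n = 4 each), with a log2 difference of 1.37 ± 0.22 (SE), an adjusted p of 2.67e-05 from limma, and an exact two-sided permutation p of 0.0286, the smallest that 4 against 4 allows. It was the only call among the 7 members that passed the filter (1 higher, 0 lower), where 8.42% of all genes were higher and 1.89% lower, with medians of 0.10 and 0.01. Msh4 exceeded 2 units in every Piwil1-/- D library, but among WT D libraries only at 2.34. It thus passed the filter through the mutant, and the counts of higher genes rest in part on genes admitted for being high there. Leaving out single libraries gave log2 differences of 1.26 to 1.55 for Msh4, and equal totals gave 1.06. Libraries A and B of a number may share an animal, so n and the permutation p-values of sorted cells count libraries, not animals. With A and B merged, Msh4 was still called higher by limma.

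Msh4 in the earlier fractions was closer to WT. It had 8.32, 7.62, 9.57 and 8.97 units in Piwil1-/- P cells, against 5.93, 2.48, 5.94 and 6.71 in WT P cells, which did not overlap, with a log2 difference of 0.68 ± 0.22, an adjusted p of 0.116 and an exact permutation p of 0.0286. In LZ it had 4.63, 3.54 and 3.09 in Piwil1-/- cells, against 4.53, 5.79, 2.99 and 3.85 in WT cells, which overlapped. Piwil1-/- D cells held 64.5% of the Msh4 mean of Piwil1-/- P cells, and WT D cells 28.5% of that of WT P cells. The test of this difference did not pass (log2 0.70 ± 0.31, adjusted p 0.651), so that the step from P to D was not shown to differ between genotypes.

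Markers of other cells were also read in these fractions. Of 8 Sertoli cell markers, 2 to 6 were above 0 in a Piwil1-/- D library, with Fshr at 0 in each, and 2 to 4 in a WT D library, with Sox9, Amh, Wt1 and Gata4 at 0 in each. Their summed level was 2.899 to 13.7 units in Piwil1-/- D cells and 2.23 to 6.11 in WT D cells, and 14.6 to 47.4 in Piwil1-/- P cells and 3.05 to 17.2 in WT P cells. Summed spermatid markers (4 matched) were 173 to 231 in Piwil1-/- D cells and 212 to 286 in WT D cells, and 29.1 to 51.9 in Piwil1-/- P cells and 39.5 to 126 in WT P cells. Prm2 and Tnp1, protein genes of condensing sperm chromatin, were at 0 in each Piwil1-/- library of both fractions and above 0 in 1 or more WT libraries of each. Summed spermatocyte markers (7 of 7) were 773 to 834 in Piwil1-/- D cells and 735 to 752 in WT D cells, without overlap. The part of these markers in the Msh4 values was not tested.

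No other member was called in any sorted fraction of Piwil1-/- males by limma. In P cells 0 of 7 tested were called, 1 of them (Msh4) at an unadjusted p under 0.05, where 2.51% of all genes were higher and 0.304% lower, with medians of 0.04 and -0.01. In LZ cells 0 of 8 were called and 3 had an unadjusted p under 0.05, against 0% of all genes higher and 0.0172% lower. Of these Prdm9 had 21.3, 15.9 and 18.5 units in Piwil1-/- cells, against 2.92, 3.62, 18.9 and 20.3 in WT cells, where the low WT values are those of libraries 1A and 1B. The count was 2 without WT LZ library 2A or without 2B, and 0 without 1A and 1B. In SPG_PL 0 of 4 were called and 0 had an unadjusted p under 0.05, against 0.0166% and 0% of all genes. Spo11 in D cells had 9.04, 8.70, 8.42 and 7.73 in Piwil1-/- cells, against 9.56, 9.35, 9.54 and 9.66 in WT cells, which did not overlap, yet its log2 difference of -0.15 ± 0.18 was not called (adjusted p 0.831). Mlh3 averaged 8.45 ± 2.06 in Piwil1-/- D cells and 5.57 ± 1.88 in WT D cells (SD, n = 4 each) and was not called (adjusted p 0.360). Tests of whether a step differed between genotypes called 0 of 8 members for LZ against SPG_PL, 0 of 9 for P against LZ and 0 of 7 for D against P, with 0, 2 and 1 at an unadjusted p under 0.05. They called 0% of all genes higher and 0% lower for LZ against SPG_PL, 0.775% and 0% for P against LZ, and 1.1% and 0.0472% for D against P, and called 0 members at the LZ steps without WT LZ libraries 1A and 1B as well.

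Among the 21 other recombination genes tested in D cells, 2 were higher and 0 lower in Piwil1-/- cells, a share close to the 8.42% of all genes that were higher. Prr19, a crossover factor gene, averaged 189 units in Piwil1-/- D cells and 101 in WT D cells (log2 0.90). Exo1, an exonuclease gene, averaged 9.86 in Piwil1-/- D cells and 6.01 in WT D cells (log2 0.64).

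In whole adult testes the mutants fell into different patterns. A lower value in bulk testis can come from fewer cells of a type or from less RNA per cell, and these cannot be told apart. All 4 mutants were set against the same 2 WT libraries. Summed spermatocyte markers (7 of 7 matched) had 190.3 to 231 units in Piwil1-/- testes, 18.8 to 23.8 in Piwil2-/-, 17.02 to 50.5 in Piwil4-/- and 139 to 156 in Piwil3-/-, against 168 to 186 in WT. Summed spermatid markers (4 matched, with Prm2 and Tnp1 at 0 in Piwil1-/-) had 17.7 to 34.9 in Piwil1-/-, 0.168 to 0.342 in Piwil2-/-, 0.816 to 3.22 in Piwil4-/- and 1985 to 2289.8 in Piwil3-/-, against 917 to 1741 in WT. Sertoli markers (8 of 8) had 274 to 281 in Piwil1-/-, 759 to 835 in Piwil2-/-, 748 to 1128 in Piwil4-/- and 165 to 180.4 in Piwil3-/-, against 139 to 176 in WT. Their part in the values below was not tested.

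In Piwil1-/- adult testes Msh4 was again higher. It had 2.68 and 2.93 units in Piwil1-/- testes, against 1.67 and 1.24 in WT testes, with a log2 difference of 0.64 ± 0.12 and an adjusted p of 4.54e-04, and the groups did not overlap (exact permutation p 0.333, the smallest possible). Dmc1 had 2.73 and 2.79 in Piwil1-/- testes, against 1.79 and 1.67 in WT testes (log2 0.46 ± 0.15, adjusted p 0.0244). Rnf212 had 7.75 and 6.69 in Piwil1-/- testes, against 11.1 and 13.8 in WT testes (log2 -0.71 ± 0.25, adjusted p 0.0372). These were 2 higher and 1 lower of 8 members that passed the filter, against 7.24% and 28.7% of all genes, with medians of 0.18 and -0.13. Msh4 and Dmc1 were over 2 units in the Piwil1-/- libraries only and passed the filter through them. The count of higher members thus rests on genes admitted for being high in the mutant. The shares of all genes come from the same filter. With equal totals the split was 4 higher and 0 lower and Rnf212 was not called (-0.23). Msh4 was called in each alternative run (0.51 to 0.76 when single libraries were left out), whereas Rnf212 was not called when any 1 of the 4 libraries was left out and Dmc1 when Piwil1-/- library 1 or 2 or WT library 2 was. The remaining members had Spo11 3.85 and 3.43, Rec114 2.44 and 2.87, Meiob 15.7 and 14.3, Msh5 8.63 and 13.2 and Mlh3 2.64 and 2.48 units in Piwil1-/- testes, against Spo11 4.25 and 2.17, Rec114 4.14 and 3.33, Meiob 12 and 9.59, Msh5 10.4 and 10.98 and Mlh3 2.12 and 2.22 in WT testes, and were not called. Of 14 other recombination genes tested, 2 were higher and 1 lower, with Prr19 at 1.05, Mnd1 at 0.79 and the nuclease gene Mus81 at -1.86.

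**Figure D4:**
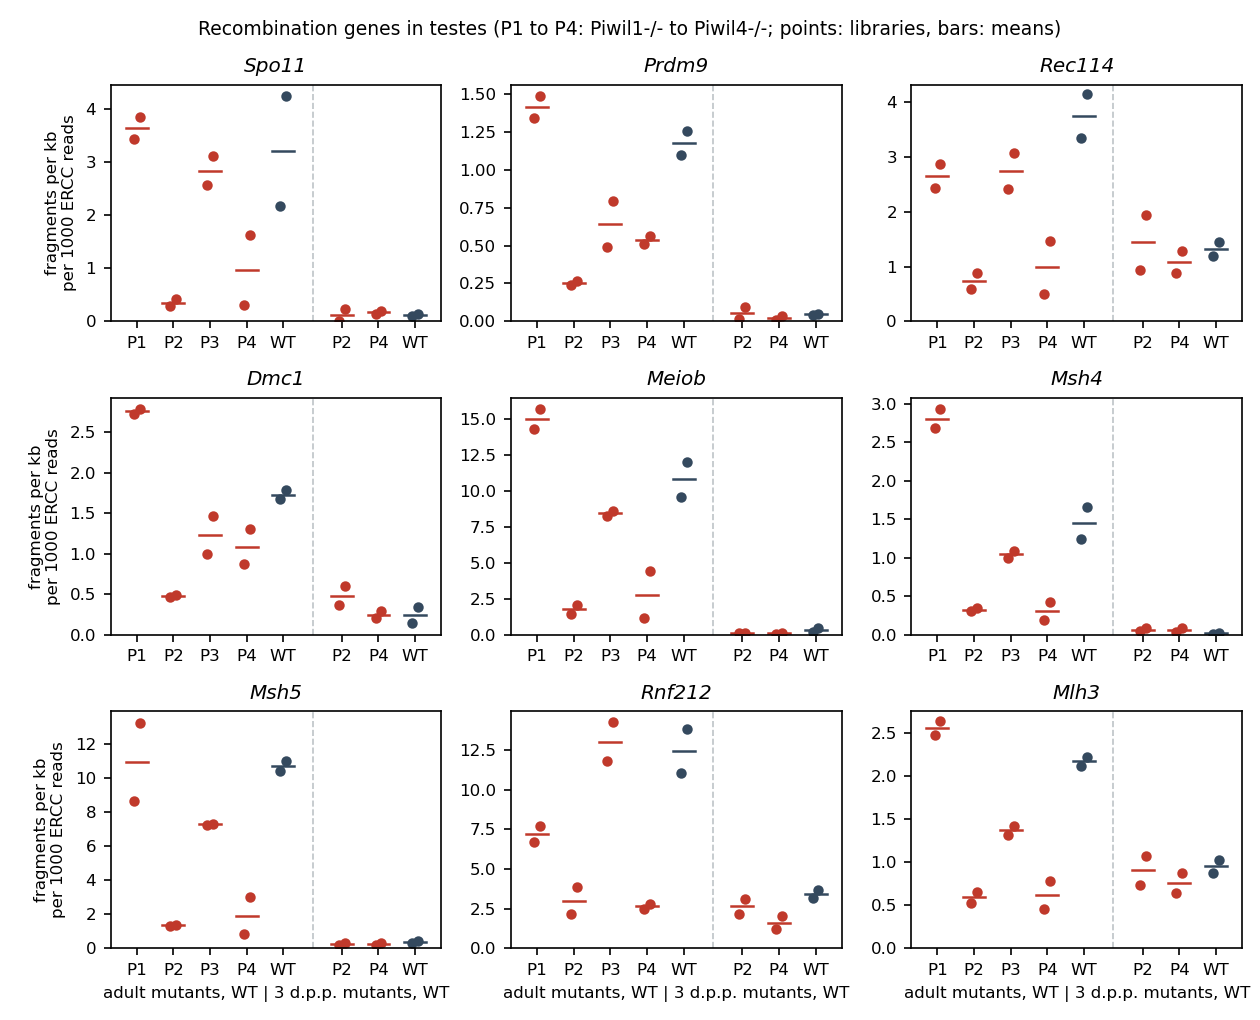
Levels of the 9 recombination genes in whole testes, in fragments per kb per 1000 ERCC reads (linear axis from 0), for adult mutants and WT (left of the dashed line) and mutants and WT at 3 d.p.p. (right of it), where P1 to P4 stand for Piwil1-/- to Piwil4-/-, points are the 2 libraries of a group and bars their means. The values of all 9 genes lie below WT in Piwil2-/- and Piwil4-/- adults on this spike-in scale, and of the 6 genes tested and called in each, 4 and 2 stay called with equal totals.

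In Piwil2-/- and Piwil4-/- adult testes every member that passed the filter was lower. The filter could be passed on the 2 WT libraries alone, and Rec114 and Mlh3 were under 2 units in every library of both mutants. The counts of lower genes in both mutants thus rest in part on genes admitted for being high in WT. The same holds for the shares of all genes. In Piwil2-/- testes 6 of 6 members tested were lower, where 20.2% of all genes were higher and 64% lower. The medians were -1.68 over the members and -1.18 over all genes. Msh5 had 1.34 and 1.35 units in Piwil2-/- testes, against 10.4 and 10.98 in WT testes, or 12.6% of the WT mean (log2 -2.32 ± 0.29, adjusted p 3.15e-06). Meiob had 2.09 and 1.45 in Piwil2-/- testes, against 12 and 9.59 in WT testes (log2 -2.09 ± 0.31). Rnf212, Spo11, Rec114 and Mlh3 were lower, with log2 differences of -1.78, -1.59, -1.45 and -0.99, and with equal totals Rec114 and Mlh3 were not called. Prdm9, Dmc1 and Msh4 did not pass the filter. Prdm9 had 0.239 and 0.268 in Piwil2-/- testes, against 1.25 and 1.099 in WT testes. Dmc1 had 0.491 and 0.468 in Piwil2-/- testes, against 1.79 and 1.67 in WT testes, and Msh4 had 0.305 and 0.353 in Piwil2-/- testes, against 1.67 and 1.24 in WT testes. All 3 lay below WT in both libraries.

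In Piwil4-/- testes 6 of 6 were lower, against 19.7% of all genes higher and 63.2% lower, with medians of -1.54 and -1.14. The 2 Piwil4-/- libraries lay apart, with Meiob at 4.41 and 1.15 units, Msh5 at 2.98 and 0.818 and Spo11 at 1.62 and 0.304, against Meiob 12 and 9.59, Msh5 10.4 and 10.98 and Spo11 4.25 and 2.17 in WT testes. The log2 differences were -2.12 for Msh5, -1.88 for Rnf212, -1.78 for Meiob, -1.29 for Rec114, -1.14 for Spo11 and -0.98 for Mlh3, and 2 of them (Msh5 and Rnf212) were called with equal totals. The other recombination genes tested were also lower, 10 of 10 in each mutant, with the MEIOB partner gene Spata22 at -2.46 in Piwil2-/- and -2.16 in Piwil4-/- testes.

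In Piwil3-/- adult testes 0 of 6 members were called by limma, 1 (Mlh3) at an unadjusted p under 0.05, against 4.91% of all genes higher and 1.4% lower, with medians of -0.33 and -0.09. Mlh3 had 1.32 and 1.42 units in Piwil3-/- testes, against 2.12 and 2.22 in WT testes (log2 -0.42 ± 0.15, adjusted p 0.118). Rnf212 had 14.3 and 11.8 in Piwil3-/- testes, against 11.1 and 13.8 in WT testes, which overlapped.

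At 3 d.p.p., before meiosis begins, the recombination genes were low and none was called in a mutant. In Piwil2-/- testes 0 of 9 were called and 0 had an unadjusted p under 0.05, against 0.197% of all genes higher and 0.201% lower. In Piwil4-/- testes 0 of 9 were called and 1 (Rnf212) had an unadjusted p under 0.05, against 0.14% and 0.163% of all genes. Rnf212, the highest member at this age, had 2.03 and 1.23 units in Piwil4-/- and 3.12 and 2.16 in Piwil2-/- testes, against 3.16 and 3.69 in WT testes, and the log2 difference of -0.77 ± 0.24 in Piwil4-/- was not called (adjusted p 0.499). Rec114 had 1.29 and 0.883 in Piwil4-/- and 1.94 and 0.940 in Piwil2-/-, against 1.44 and 1.196 in WT testes. The other 7 genes were at or under 1.07 units in every library at this age.

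In WT adult against WT 3 d.p.p. testes 6 of 6 members that passed the filter were higher, where 67% of all genes were higher and 15.8% lower, with medians of 1.73 and 1.30. The filter could be passed on the 2 adult libraries alone, so these counts favour genes high in adult testes. Meiob, Msh5, Rec114 and Mlh3 were under 2 units in every WT library at 3 d.p.p. Prdm9, Dmc1 and Msh4 did not pass the filter and were also higher in adult testes, without overlap. Meiob had 12 and 9.59 units in adult testes, against 0.503 and 0.202 at 3 d.p.p. (log2 3.13 ± 0.31), and Msh5 had 10.4 and 10.98 in adult testes, against 0.439 and 0.294 at 3 d.p.p. (log2 3.10 ± 0.29). Spo11, Rnf212, Rec114 and Mlh3 were higher by 1.86, 1.6, 1.03 and 0.70. With equal totals Meiob, Msh5 and Spo11 were called, and Rec114 and Mlh3 turned to -0.03 and -0.21.

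Rec114 was the most abundant of the 9 genes in GV and MII oocytes of each genotype. In GV oocytes Rec114 had 2213, 2009 and 2005 units in Piwil3-/- (1895, 2113 and 2029 reads), against 1792, 1536 and 1566 in WT (1677, 1171 and 1539 reads). It made up 88.9% of the members' summed level in Piwil3-/- and 85.0% in WT GV oocytes. The groups did not overlap, but the log2 difference of 0.35 ± 0.46 was not called (adjusted p 1, exact permutation p 0.1, the smallest that 3 against 3 allows). Rnf212 followed, with 205, 179.8 and 205 in Piwil3-/-, against 224, 264 and 178 in WT, then Dmc1 with 37.3, 45.99 and 37.97 in Piwil3-/-, against 43.8, 31.1 and 39.1 in WT, and Mlh3 with 10.3, 8.71 and 14.4 in Piwil3-/-, against 31.4, 19.7 and 11.5 in WT. These 3 overlapped between genotypes. Lower levels were read for Prdm9, with 5.77, 2.19 and 4.24 units in Piwil3-/- (15, 7 and 13 reads), against 7.05, 2.16 and 4.70 in WT GV oocytes (20, 5 and 14 reads), and for Msh4, with 7.61, 3.25 and 0.614 in Piwil3-/-, against 1.33, 3.26 and 0 in WT, and both overlapped.

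Spo11 was listed at 0 in Piwil3-/- GV oocytes and had 1 read in each of 2 WT libraries, and Msh5 did not exceed 1.28 units in GV oocytes. Meiob had 3.55, 1.93 and 2.00 in Piwil3-/- GV oocytes (6, 4 and 4 reads) and was listed at 0 in the 3 WT libraries. It did not pass the filter. By limma 0 of the 6 members tested in GV oocytes were called and 0 had an unadjusted p under 0.05, against 1.24% of all genes higher and 1.06% lower. In MII oocytes 0 of 3 were called, 1 (Dmc1) at an unadjusted p under 0.05, against 2.93% and 1.75% of all genes. Dmc1 there had 10.8, 3.28, 1.31 and 13.3 in Piwil3-/-, against 2.78, 0, 6.00 and 2.21 in WT, which overlapped.

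From GV to MII most transcripts fell in WT. All 5 members that passed the filter were lower in MII, where 0.0746% of all genes were higher and 90.9% lower, with medians of -3.67 and -2.68. The filter could be passed on the GV libraries alone, so the count and the shares favour genes high in GV. Prdm9, at most 0.943 units in MII, was admitted in this way. Rec114 had 97.97, 64.7, 53.3 and 90.1 units in MII oocytes, 4.69% of the GV mean (log2 -4.43 ± 0.43), and Rnf212 had 5.37, 0.220, 4.92 and 0 in MII oocytes (log2 -6.40 ± 0.78). Dmc1, Prdm9 and Mlh3 were lower, with log2 differences of -3.67, -2.07 and -1.17. With equal totals Rec114 and Rnf212 were called, and Mlh3 turned to 0.92. Among other recombination genes 27 of 28 tested were lower.

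In Piwil2-/- MII oocytes 0 of 4 members tested were called and 0 had an unadjusted p under 0.05, against 0.544% of all genes higher and 0.318% lower. In Piwil4-/- MII oocytes 1 of 4 was lower, against 3.72% of all genes higher and 21.7% lower. This was Rnf212, with 2.04 and 3.32 units in Piwil4-/- and 12.6, 13.2 and 25.2 in Piwil2-/- oocytes, against 33.3, 31.1 and 14.2 in the WT set labelled MII2 (log2 -2.82 ± 0.93 and adjusted p 0.0217 for Piwil4-/-). The labels do not say that the MII2 set is the control of these mutants. Against the WT libraries labelled MII the Piwil4-/- difference turned to 0.48 and was not called. Those libraries had 5.37, 0.220, 4.92 and 0 units. Against them 2 of the 4 members were called in Piwil2-/- oocytes, Rnf212 higher (log2 2.72, adjusted p 0.00710) and Mlh3 lower (log2 -1.21, adjusted p 0.0485), where 24.3% of all genes were higher and 6.26% lower. The Piwil4-/- call of Rnf212 was also lost when WT MII2 library 1 or 2 or either Piwil4-/- library was left out.

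In WT embryos Rec114 was lower at 34 h than at 11 h and higher again at 54 h, and embryos of Piwil3-/- females had almost none of it at 34 and 54 h. At 11 h Rec114 had 120.0, 71.98, 82.4, 76.7 and 74.7 units in embryos of Piwil3-/- females, against 88.6, 108, 80.8, 63.2 and 59.8 in WT embryos, which overlapped. At 34 h it had 0.145, 0.0218 and 0.0222 in embryos of Piwil3-/- females (7, 2 and 1 reads), against 0, 2.28, 7.35 and 8.70 in WT embryos (0, 98, 322 and 505 reads). At 54 h it had 0 and 1.04 in embryos of Piwil3-/- females (0 and 19 reads), against 80.7 and 69.1 in WT embryos (1302 and 722 reads). At 34 h 1 WT embryo was at 0 and the groups overlapped, and at 54 h they were far apart. The study reported delayed development of embryos of Piwil3-/- females, so genotype and developmental stage cannot be told apart at a given hour. Their Rec114 values at 54 h lay within those of WT embryos at 34 h (0 to 8.70 units). The part of stage in these values was not tested.

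**Figure D5:**
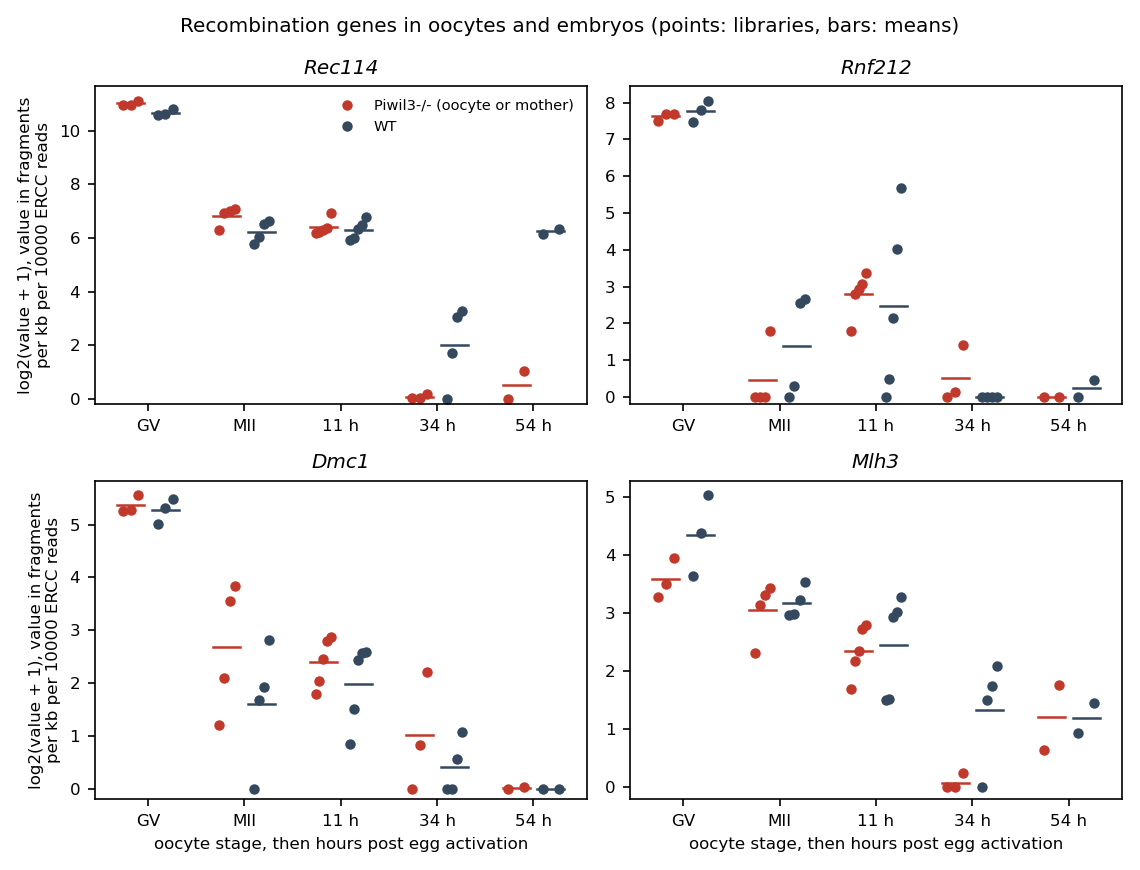
Levels of Rec114, Rnf212, Dmc1 and Mlh3 as log2(value + 1), with the value in fragments per kb per 10000 ERCC reads, in oocytes (GV, MII) and embryos at 11, 34 and 54 h post egg activation, for Piwil3-/- oocytes or embryos of Piwil3-/- mothers (left of each pair) and WT, where points are libraries and bars their means. At 54 h Rec114 is at 0 and 1.04 units in embryos of Piwil3-/- mothers, against 80.7 and 69.1 in WT embryos.

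In WT embryos at 34 h against 11 h, Rec114 was at 5.72% (log2 -4.30 ± 0.38, adjusted p 2.92e-13), and Mlh3 was lower (log2 -1.11), which were 2 of 2 members tested, against 6.35% of all genes higher and 86.2% lower. For Rec114 the groups did not overlap (exact permutation p 0.00794, the smallest possible). With equal totals Mlh3 turned to 0.89, and without WT 34 h library 1, or without the 2 WT 11 h libraries titled 8PEA, 1 call was left. In WT embryos at 54 h against 34 h, Rec114 was 16.4-fold higher (log2 4.23 ± 0.49, adjusted p 9.02e-09). It was the 1 call among 3 members tested, against 40.9% of all genes higher and 4.3% lower, with medians of 0.05 and 0.80. At 54 h it made up 97.7% of the members' summed level in WT embryos, and 5 of the 9 genes were listed at 0 in both WT libraries. At 11 h against MII, 0 of 4 were called and 0 had an unadjusted p under 0.05, against 17.6% and 6.76% of all genes.

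At 54 h Rec114 averaged 0.519 ± 0.734 units in embryos of Piwil3-/- females and 74.9 ± 8.23 in WT embryos (SD, n = 2 each), 0.693% of WT, with a log2 difference of -5.73 ± 0.56 and an adjusted p of 7.04e-10 from limma (exact permutation p 0.333, the smallest possible). It was 1 of 3 members tested (0 higher, 1 lower), against 4.69% of all genes higher and 23.1% lower, with medians of -0.18 and -0.46. Leaving out single libraries gave -6.24 to -5.21 and equal totals -6.61, whereas a fit on these 4 libraries alone gave no call. Mlh3, which was not called, had 2.38 and 0.566 in embryos of Piwil3-/- females, against 1.74 and 0.920 in WT embryos. Total spike-in units per library were 87011 to 90139 in embryos of Piwil3-/- females and 169394 to 187333 in WT embryos, and their part in the Rec114 value was not tested beyond the equal-totals fit.

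At 34 h Rec114 (log2 -1.93 ± 0.43, adjusted p 4.12e-04, exact permutation p 0.143) and Mlh3 were lower in embryos of Piwil3-/- females, 2 of 4 members tested, against 14.9% of all genes higher and 21.3% lower, with medians of -0.60 and -0.02. Mlh3 had 0, 0 and 0.186 units in embryos of Piwil3-/- females, against 0, 3.27, 2.36 and 1.85 in WT embryos (log2 -1.26 ± 0.47, adjusted p 0.0343), and its call was lost when any of the 3 libraries from Piwil3-/- females or WT library 3, 4 or 5 was left out. A fit on the 34 h libraries alone called neither gene. Summed oocyte markers moved with this comparison, at 79.4 to 175 units in embryos of Piwil3-/- females and 5.67 to 29.5 in WT embryos, and so did the germ cell markers, at 14.6 to 26.4 in embryos of Piwil3-/- females and 0.0209 to 1.19 in WT embryos. Their part in the Rec114 and Mlh3 values was not tested. At 54 h the oocyte markers overlapped, at 4.85 to 11.6 in embryos of Piwil3-/- females and 8.25 to 13.9 in WT embryos. At 11 h 0 of 4 members were called and 0 had an unadjusted p under 0.05, against 0.766% and 0.594% of all genes.

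Other recombination genes called in the same embryos included Mnd1, which was higher at 34 h in embryos of Piwil3-/- females (log2 2.02), and Prr19, which was lower (-0.98). At 54 h 0 of 20 were higher and 2 lower, against 4.69% and 23.1% of all genes, Tex15 (-2.06) and Exo1 (-1.89).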

How the data were processed

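Per the labels and the study's methods, RNA of single oocytes or embryos, of sorted cells and of testes was made into libraries by a Smart-seq2-type protocol with ERCC spike-in, the authors trimmed reads with Trim Galore 0.5.0, aligned them with STAR 2.9 (multi-mapping reads kept) and counted them per NCBI gene with featureCounts 1.6.4, without use of strand, so that reads of overlapping or antisense genes cannot be told apart. The study's text names the hamster assembly BCM_Maur_2.0, while the labels of 3 tables name a mouse build, and no coordinates are given here. The authors deposited FPKM values for the 7 WT stages. For sorted cells, oocytes and embryos they deposited a ratio, fragments per kilobase per 10000 ERCC reads, and for testes the same ratio per 1000 ERCC reads. Read numbers printed here were recovered from the step that 1 read makes in each library, and they and the intervals of the tests cover these libraries only.

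The members and lists were chosen with earlier results of these data known. Of the deposited columns, 103 were used and 2, which matched no sample used here, were not. A gene was tested where 40% or more of the compared libraries exceeded 2 (or 0, where under 5000 genes would have passed). The libraries of a single compared group could suffice for this. Counts of called genes, and the shares of all genes, thus favour genes that are high in either group. limma 3.58.1 in R 4.3.3 was fitted to log2(value + 1) over all groups of a table, with trend and no covariates, in 34 comparisons, and p-values were adjusted by Benjamini-Hochberg over all genes tested. A difference on the log2(value + 1) scale understates the change of low genes. Folds are ratios of group means. Single values were also compared by exact two-sided permutation tests. The fit was also run on simulated data, for Piwil1-/- against WT in P cells and in adult testes only, and that outcome is not reported here. All 9 members were named throughout, and of the 33 other recombination genes matched, up to 4 per comparison, those called with the greatest log2 differences. The values of some genes of that list are not reported here. Likeness was the Pearson correlation over 7 stage means of log2(FPKM + 1).

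The sorted WT libraries of 1 number deviated together in every stage comparison (4 pairs each, correlations of 0.155 to 0.199 for LZ against SPG_PL, 0.164 to 0.236 for P against LZ and 0.157 to 0.344 for D against P), so the numbers pair these samples, and libraries A and B of a number may share an animal. Alternatives were a pseudocount of 0.1, no filter, scaling to equal totals, the compared groups alone, the replicate number as a block, A and B merged, other WT MII controls, leaving out the libraries titled 8PEA and leaving out each library. Leaving out WT LZ 1A and 1B, and crossed blocks in testes, were chosen after seeing the data.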

Additional observations from a re-analysis of the deposited data

Results flagged for a closer look

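Single libraries that stood far from the rest of their group were found in 10 of 84 combinations of a member and a group of 4 or 5 libraries. Chance sets a library apart in about 1 in 20 groups of normally spread values, a rate that does not apply to the 5 cases in which every other library was at 0, where any read at all stands apart. Rec114 was at 120.0 units in library 1 from Piwil3-/- females at 11 h, with the others at 72.0 to 82.4, and Rnf212 was at 2.45 in Piwil3-/- MII library 3, with the others at 0. Prdm9 was at 3.00 in the WT 11 h library titled 1-8PEA (others 0 to 0.564), at 0.00451 in WT 34 h library 1 (others 0) and at 2.19 in WT P library 2B (others 1.38 to 1.49). Spo11 was at 0.777 in WT 11 h library 3 (others 0) and Msh4 at 0.0740 in WT MII library 1 (others 0). Msh5 was at 58.3 in Piwil1-/- D library 2A (others 51.3 to 52.4), at 0.793 in WT 34 h library 5 (others 0 to 0.0144) and at 0.876 in WT MII library 4 (others 0).

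In 5 cases a mutant's libraries all lay on opposite sides of WT at 2 stages, and these differences were not tested. Rec114 in Piwil3-/- females' embryos at 54 h against Piwil3-/- GV oocytes had a difference of log2 differences of -5.99. In adult against 3 d.p.p. testes the values were -1.13 for Dmc1 and -0.95 for Msh4 in Piwil2-/-, and -1.17 for Spo11 and -0.97 for Msh4 in Piwil4-/-, where several of these levels are under 1 unit.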

How the results depend on the processing

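Of 870 recomputed values of the 80 called member differences, 778 kept their call and direction, 84 kept the direction but were no longer called and 8 turned round. With equal totals the counts of called members became 7 for WT D against P, 2 for Piwil4-/- adult testes, 3 for WT adult against 3 d.p.p. testes, 2 for WT MII against GV and 1 for WT 34 h against 11 h, and 0 for Piwil4-/- MII oocytes. Equal totals also turned Meiob (-0.56), Rec114 (-0.45) and Msh5 (-0.13) in WT P against LZ, Mlh3 (-0.21) and Rec114 (-0.032) in WT adult against 3 d.p.p. testes, and Mlh3 in WT MII against GV (0.92) and 34 h against 11 h (0.89). The compared groups alone gave 0 calls for pre-leptotene against spermatogonia, for leptotene against pre-leptotene and for Piwil3-/- at 34 h and 54 h, 3 for mature against round sperm, 5 for WT D against P, 1 for Piwil1-/- adult testes and 1 for WT 34 h against 11 h. A pseudocount of 0.1 gave 1 for Piwil1-/- adult testes and 0 for Piwil4-/- MII oocytes. No filter gave 1 for Piwil3-/- adult testes, 1 for Piwil3-/- GV oocytes, 1 for Piwil3-/- at 34 h and 4 for WT 34 h against 11 h, and leaving out the libraries titled 8PEA gave 1 for that step. The WT libraries labelled MII as controls gave 2 for Piwil2-/- and 0 for Piwil4-/- MII oocytes, with Rnf212 at 0.48. The replicate block gave 0 for Piwil4-/- MII oocytes (Rnf212 -2.44), left Mlh3 in WT MII against GV at -1.03 without a call, added Spo11 in WT D against P and changed no other call of a member. The cause of these changes was not tested. Crossed pairing, chosen after seeing the data, gave 3 calls in Piwil1-/- adult testes, 0 in 3 d.p.p. Piwil4-/- testes and 6 in WT adult against 3 d.p.p. testes, as without a block.

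Leaving out single libraries, the counts ranged from 1 to 6 for leptotene against pre-leptotene, 0 to 3 for zygotene against leptotene, 3 to 5 for mature against round sperm, 0 to 2 for Piwil1-/- LZ, 1 to 2 for Piwil1-/- adult testes, 1 to 2 for Piwil3-/- at 34 h, 0 to 1 for Piwil4-/- MII oocytes and 1 to 2 for WT 34 h against 11 h. Groups of 2 libraries, low read numbers of Msh4 and Spo11 and of most members in embryos, and the unknown number of animals limit these values.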
